A study of Mus musculus with 12 samples.

Results

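Levels of 10 genes of the p53 pathway and the BCL2 family were followed in mouse kidney CD4 T cells: Trp53, Cdkn1a, Mdm2, Ccng1, Bbc3, Pmaip1, Bax, Bcl2l11, Bcl2 and Mcl1. They were chosen by symbol, all 10 were found among the 52632 genes measured, and all 10 passed the filter of a mean of at least 1 FPKM that left 19288 genes to test. FPKM is the number of sequenced fragments of a gene scaled to its length and to the size of its library. The 12 libraries fall into 4 groups of 3: KO IRI, KO control, WT IRI and WT control. KO mice carried the modification labelled CD4 Keap1 KO on the C57BL6/J background and were bred in house, and WT mice were C57BL6/J animals bought from a supplier, and so the source of the mice cannot be told apart from their genotype. IRI, ischemia-reperfusion injury, was a clamp on both renal pedicles for 30 min followed by harvest at 24 h. Neither the Cre or promoter behind the deletion, nor the age of the mice, nor a sham operation for controls is given in the sources used here. Separate animals behind the 3 libraries of a group are not stated either, and the p-values then measure only library-to-library spread, which may be technical.

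The protein p53, encoded by Trp53, is a transcription factor kept scarce by the ubiquitin ligase Mdm2 and stabilised after DNA damage and other stress. Its activity is set mainly at the protein level and is read out by target genes that halt the cell cycle, such as Cdkn1a, or start cell death, such as Bbc3, Pmaip1 and Bax. BCL2 family proteins decide whether mitochondria are opened to start apoptosis: Bcl2 and Mcl1 hold effectors such as Bax in check. The BH3-only proteins Bim (Bcl2l11) and Puma (Bbc3) block both of these guardians, and Noxa (Pmaip1), also BH3-only, blocks Mcl1. In T cells Bim is the main trigger of death on cytokine withdrawal, is induced by forkhead (FOXO) factors as well as other routes, and is opposed by Bcl2 and Mcl1. Keap1 marks the stress factor NRF2 for degradation.

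Promoter sequences of the members at which the response to injury was largest (Cdkn1a and Bcl2l11) and of the ligase and the BH3-only gene that are set beside them (Mdm2 and Bbc3) are shown, since motifs of p53 and of forkhead factors occur in them. RefSeq windows on build GRCm38.p6, from 250 bases before to 50 after an annotated start, were found for 9 of the 10 genes, 13 windows in all, and are written 5′ to 3′ on the strand of the gene. Capitals mark matches, on both strands, to the p53 half-site motif and to the forkhead motif GTAAACA, which do not overlap in these windows.
Cdkn1a, plus strand, chr17:29090729-29091028: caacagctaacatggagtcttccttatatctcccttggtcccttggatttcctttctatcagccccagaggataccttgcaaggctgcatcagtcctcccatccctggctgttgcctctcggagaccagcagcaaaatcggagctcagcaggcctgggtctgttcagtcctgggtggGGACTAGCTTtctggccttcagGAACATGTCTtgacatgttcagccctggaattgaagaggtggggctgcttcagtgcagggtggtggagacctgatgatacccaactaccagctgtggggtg
Bcl2l11, plus strand, chr2:128125788-128126087: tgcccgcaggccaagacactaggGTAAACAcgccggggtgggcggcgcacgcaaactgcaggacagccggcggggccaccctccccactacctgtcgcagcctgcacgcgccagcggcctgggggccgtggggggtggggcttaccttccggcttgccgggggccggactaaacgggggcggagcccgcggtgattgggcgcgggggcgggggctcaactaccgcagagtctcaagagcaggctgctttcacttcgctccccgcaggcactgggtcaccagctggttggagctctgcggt
Bbc3, plus strand, chr7:16310011-16310310: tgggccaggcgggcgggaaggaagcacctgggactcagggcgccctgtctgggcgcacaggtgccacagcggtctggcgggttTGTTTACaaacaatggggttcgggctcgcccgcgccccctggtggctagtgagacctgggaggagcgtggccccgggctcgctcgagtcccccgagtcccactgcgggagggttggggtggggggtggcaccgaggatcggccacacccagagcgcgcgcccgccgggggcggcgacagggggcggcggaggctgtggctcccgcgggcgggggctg
Mdm2, minus strand, chr10:117710709-117711008: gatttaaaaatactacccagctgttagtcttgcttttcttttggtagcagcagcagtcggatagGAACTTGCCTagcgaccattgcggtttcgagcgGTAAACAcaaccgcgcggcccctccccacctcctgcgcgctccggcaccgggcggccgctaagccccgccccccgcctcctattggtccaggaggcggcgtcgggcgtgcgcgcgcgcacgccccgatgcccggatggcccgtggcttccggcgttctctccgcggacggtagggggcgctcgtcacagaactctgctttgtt
In the Cdkn1a window shown, the p53 half-site motif begins at positions −73 and −51 relative to its annotated start, as GGACTAGCTT and GAACATGTCT. In Mdm2 it begins at −186 (GAACTTGCCT), with a forkhead match at −153. In Bcl2l11 the forkhead match begins at −227. In Bbc3 it begins at −167 and is read on the opposite strand (TGTTTAC), in 1 of 3 RefSeq windows of that gene. Further RefSeq windows of Cdkn1a (chr17:29093519-29093818) and Bcl2l11 (chr2:128127325-128127624) held no match to the p53 half-site or forkhead motif. The p53 half-site motif was found in 5 of 13 windows of these genes and in 8.36% of all 32851 RefSeq windows. Beside Cdkn1a and Mdm2 these were windows of Trp53 (match beginning at −75), Ccng1 (−185) and Bax (−201), which are not shown. The forkhead motif was found in 3 of 13 and in 3.65% of all windows. These are matches of letters and show no binding.

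Facts of the whole series bear on the values. Summed FPKM per library ran from 739969 to 2089551, and no counts were given, so depth and counting error are unknown. Across genes, Spearman's rho was 0.756 to 0.878 between libraries of 1 group and 0.719 to 0.850 between libraries of different groups. KO control 1 had the highest factor in a rescaling by median ratios (1.34), and WT IRI 3 and WT control 3 had the lowest summed FPKM. These 3 libraries, chosen after the data were seen, are left out in an added check. The T cell gene Cd3e was at 73.8 to 324 FPKM and Cd4 at 49.7 to 382 FPKM in every library. Keap1 read 4.59 to 7.77 FPKM in KO and 6.03 to 9.87 FPKM in WT libraries, and a value for the whole gene does not check a deleted exon. The NRF2 target Nqo1 read 3.38 to 7.75 FPKM in KO libraries and at most 0.543 FPKM in WT libraries.

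The 10 genes spanned a wide range of levels, which FPKM allows to be compared between genes because it is scaled for length. Mcl1 was the most abundant in each group, at 334.5 ± 44.8 FPKM in KO IRI, 182 ± 41.5 in KO control, 186 ± 42.7 in WT IRI and 120.0 ± 22.7 in WT control (mean ± SD, n = 3). Bcl2l11 was the next in each group. Cdkn1a was the lowest of the 10 in both control groups, and Pmaip1 was the lowest in both IRI groups. Between these ends the means of the other genes lay close together. In WT control, Ccng1, Mdm2, Bcl2, Trp53 and Bax had means of 34.2, 26.6, 26.0, 25.8 and 24.1 FPKM, and each neighbour in this order overlapped the next in its libraries. In KO IRI, Bcl2, Mdm2, Bbc3, Bax and Ccng1 stood in that order with overlapping libraries, from a mean of 54.9 FPKM for Bcl2 to 31.8 FPKM for Ccng1.

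**Figure D1:**
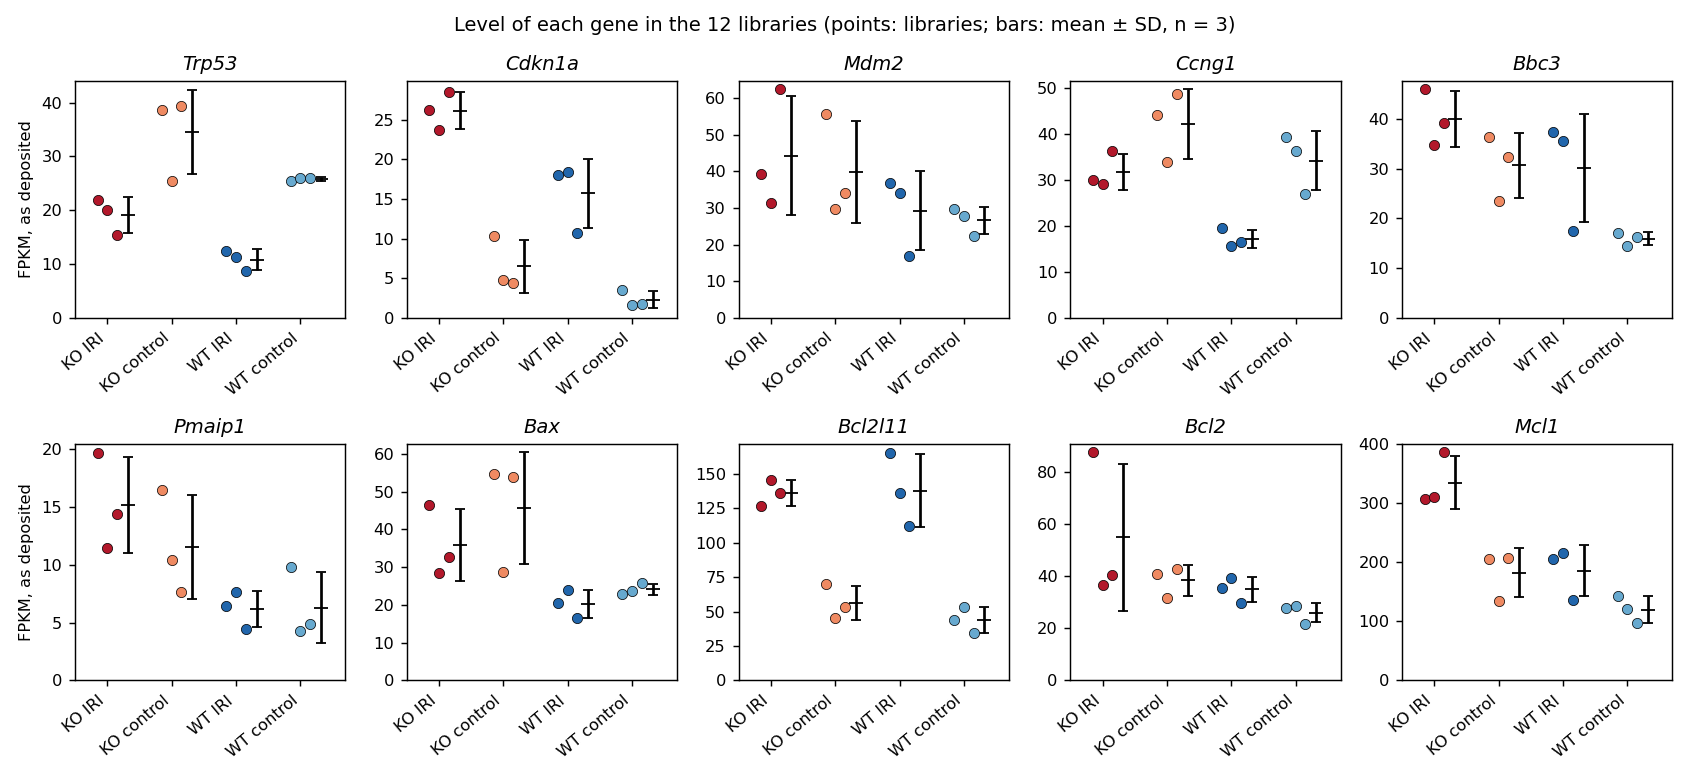
FPKM as deposited (linear axis from 0) of each of the 10 genes in the 12 libraries; points are libraries and bars are the mean ± SD of 3. Cdkn1a and Bcl2l11 are higher in IRI than in control libraries of both genotypes, and Trp53 is lower.

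IRI was set against control in each genotype to measure the response of kidney CD4 T cells to injury. Differences are in log2(FPKM + 1), a scale on which changes of low genes are understated, with a standard error (SE). P-values come from limma and are adjusted over all tested genes with a threshold of 0.05. In KO, 2 of the 10 genes rose and 0 fell, where 0.866% of all tested genes passed (0.327% higher and 0.539% lower). In WT, 2 rose and 2 fell, where 3.78% of all tested genes passed (1.19% higher and 2.59% lower). Cdkn1a and Bcl2l11 rose in both genotypes, and Trp53 and Ccng1 fell in WT. After rescaling by median ratios 3 were higher and 1 lower in KO, where 2.06% of all tested genes passed (0.959% higher and 1.1% lower). In WT, 4 were then higher and 2 lower, where 7.94% passed (3.26% higher and 4.68% lower).

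Trp53 mRNA was lower after injury. It was at 21.8, 20.1 and 15.5 FPKM in KO IRI, against 38.7, 25.5 and 39.4 FPKM in KO control. WT IRI libraries stood at 12.5, 11.3 and 8.71 FPKM, against 25.4, 25.9 and 25.9 FPKM in WT control. Every IRI library was below every control library of its genotype, and the 3 WT control libraries were nearly equal. The difference was −1.19 ± 0.21 in WT (SE, n = 3, adjusted p = 0.013), a level 0.420 times that of control by the ratio of means. It was −0.81 ± 0.21 in KO (adjusted p = 0.107), and passed there after rescaling (−0.71 ± 0.14, adjusted p = 0.0318). That rescaled call was lost without KO control 1, WT IRI 3 and WT control 3 together (adjusted p = 0.142). The call in WT was lost without WT control 2 or without WT control 3, and the adjusted p over the 12 libraries left out in turn ran from 0.00621 to 0.0517. It was 0.105 without the same 3 libraries as deposited, and 0.0322 with rescaling.

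Mdm2, the target and inhibitor of p53, did not pass in either genotype. It was at 39.2, 31.2 and 62.4 FPKM in KO IRI, against 55.6, 29.6 and 33.9 FPKM in KO control. The WT IRI values were 36.9, 34.2 and 16.8 FPKM, against 29.6, 27.7 and 22.4 FPKM in WT control. The groups overlapped in both genotypes, with KO IRI 3 the highest library and WT IRI 3 the lowest. The log2 differences were 0.15 ± 0.35 in KO and 0.07 ± 0.35 in WT (adjusted p = 0.89 and 0.959).

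Cdkn1a encodes the cyclin-dependent kinase inhibitor p21 and had the largest change of the 10 genes. It was at 26.2, 23.7 and 28.5 FPKM in KO IRI, against 10.3, 4.77 and 4.34 FPKM in KO control. In WT IRI its level was 17.97, 18.4 and 10.6 FPKM, against 3.48, 1.61 and 1.73 FPKM in WT control. The groups did not overlap in either genotype, and replicate 1 was the highest library of both control groups. The log2 difference was 1.94 ± 0.33 in KO (SE, n = 3, adjusted p = 0.0266), with means 4.04 times those of control. In WT it was 2.36 ± 0.33 (adjusted p = 0.00501), with means 6.90 times those of control. The WT call held with each library left out in turn (adjusted p 0.00333 to 0.0301), while the KO call was lost without KO IRI 2, KO IRI 3 or KO control 3 (highest adjusted p = 0.108) and with no filter on low values (adjusted p = 0.0672).

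Markers of injured tubule cells were also higher after injury. Their sum over 8 genes was 15.3 to 99.2 FPKM in KO IRI, against 2.46 to 10.05 FPKM in KO control. It was 14.5 to 108 FPKM in WT IRI, against 6.63 to 10.1 FPKM in WT control, and 1 of the 6 markers tested passed, Lcn2 (higher, IRI averaged over genotype). None of the 8 was at 0 in every library. Much of the sum was Lcn2 in WT IRI 1 and 2, at 84.1 and 86.0 FPKM, against 4.29 FPKM in WT IRI 3. Lcn2 was at 8.84, 32.8 and 39.9 FPKM in KO IRI 1, 2 and 3. KO IRI 1 had a marker sum of 15.3 FPKM and a Cdkn1a level of 26.2 FPKM, against 99.2 FPKM and 28.5 FPKM in KO IRI 3. WT IRI 3 had the lowest marker sum of its group, 14.5 FPKM against 108 and 101 FPKM in WT IRI 1 and 2, and also the lowest Cdkn1a level, 10.6 FPKM against 17.97 and 18.4 FPKM. Sums of other tubule markers overlapped between IRI and control. For 10 proximal tubule markers they were 7.66 to 293 FPKM in KO IRI and 3.38 to 167 in KO control. In WT they were 6.61 to 49.5 FPKM after IRI and 9.21 to 68.5 in control. For 8 loop and distal tubule markers they were 5.74 to 283 FPKM in KO IRI and 2.33 to 38.9 in KO control. In WT these were 10.1 to 58.3 FPKM after IRI and 10.5 to 83.7 in control. The part of tubule RNA in the rise of Cdkn1a was not tested.

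Ccng1, cyclin G1, is a target of p53 that feeds back on its regulators, and its mRNA moved in the direction opposite to Cdkn1a. It was at 30.0, 29.0 and 36.3 FPKM in KO IRI, against 44.1, 33.8 and 48.7 FPKM in KO control. Among WT IRI libraries it read 19.5, 15.6 and 16.5 FPKM, against 39.4, 36.4 and 27.0 FPKM in WT control. The WT groups did not overlap, and in KO the highest IRI library lay above the lowest control library. The log2 difference was −0.94 ± 0.20 in WT (SE, n = 3, adjusted p = 0.0282) and −0.39 ± 0.20 in KO (adjusted p = 0.417). The WT call was lost without any 1 of WT IRI 1, WT IRI 2, WT IRI 3, WT control 1 and WT control 2 (highest adjusted p = 0.109), with no filter on low values (adjusted p = 0.0581) and without KO control 1, WT IRI 3 and WT control 3 together (adjusted p = 0.0793).

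T cell genes were lower after injury beside Trp53 and Ccng1. The sum of 12 CD4 T cell markers was 1688 to 2071 FPKM in KO IRI, against 2078 to 3078 FPKM in KO control. It was 873 to 1083 FPKM in WT IRI, against 1656 to 1824 FPKM in WT control. Of the 12 markers, 7 fell and 1 rose with IRI averaged over genotype, and none was at 0 in every library. Markers of CD8 T and NK cells and of dendritic cells were lower too. The sum of 8 CD8 T and NK cell markers, of which 5 fell, was 23.6 to 40.3 FPKM in KO IRI against 87.8 to 146 FPKM in KO control, and 30.2 to 46.1 FPKM in WT IRI against 104 to 143 FPKM in WT control. The sum of 8 dendritic cell markers, of which 3 fell, was 15.4 to 23.3 FPKM in KO IRI against 30.0 to 52.9 FPKM in KO control, and 13.9 to 15.9 FPKM in WT IRI against 20.8 to 26.9 FPKM in WT control. Of 8 B cell markers 4 fell, and of 10 macrophage and monocyte markers 3 fell. In such bulk samples, fewer cells of a type and less RNA per cell cannot be told apart, and the parts of the shares of these cell types in the falls of Trp53, Ccng1 and the genes of dividing cells were not tested.

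Bcl2l11, which encodes the BH3-only protein Bim, rose in both genotypes. It was at 127, 145 and 136 FPKM in KO IRI, against 69.9, 45.5 and 53.05 FPKM in KO control. The WT IRI libraries held 165, 136 and 112 FPKM, against 43.9, 53.4 and 34.4 FPKM in WT control. Every IRI library lay above every control library of either genotype, and the 2 IRI groups overlapped. The log2 difference was 1.28 ± 0.23 in KO (SE, n = 3, adjusted p = 0.032), with means 2.42 times those of control. In WT it was 1.63 ± 0.23 (adjusted p = 0.00501), with means 3.14 times those of control. The WT call held with each library left out in turn, while the KO call was lost without KO IRI 2, KO IRI 3, KO control 3, WT IRI 2 or WT control 1 (highest adjusted p = 0.133) and with no filter on low values (adjusted p = 0.0691). The Bcl2l11 window printed above holds a forkhead match and no match to the p53 half-site motif, and its further window holds neither. Forkhead matches also occur in the Mdm2 and Bbc3 windows printed above. The part of forkhead factors or of p53 in the rise was not tested.

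The p53-inducible BH3-only genes had smaller differences that did not pass as deposited. Bbc3, which encodes Puma, was at 46.1, 34.7 and 39.2 FPKM in KO IRI, against 36.3, 23.5 and 32.3 FPKM in KO control. In WT IRI it was at 37.3, 35.6 and 17.5 FPKM, against 17.1, 14.4 and 16.2 FPKM in WT control. The WT groups did not overlap, although WT IRI 3 lay just above the controls, and the KO groups overlapped. As deposited, Bbc3 did not pass (0.38 ± 0.28 in KO, adjusted p = 0.563, and 0.81 ± 0.28 in WT, adjusted p = 0.142). After rescaling it passed in WT (0.87 ± 0.18, adjusted p = 0.0183) and not in KO (0.48 ± 0.18, adjusted p = 0.221). Pmaip1, which encodes Noxa, was at 19.6, 11.5 and 14.4 FPKM in KO IRI, against 16.4, 10.4 and 7.66 FPKM in KO control. In WT IRI it was at 6.40, 7.60 and 4.47 FPKM, against 9.79, 4.23 and 4.87 FPKM in WT control. The groups overlapped in both genotypes, and the log2 differences of 0.40 ± 0.34 in KO and 0.02 ± 0.34 in WT did not pass (adjusted p = 0.632 and 0.995).

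Bax, the pore-forming effector and a p53 target, did not pass either. It was at 46.6, 28.5 and 32.7 FPKM in KO IRI, against 54.6, 28.6 and 53.9 FPKM in KO control. In WT IRI it was at 20.6, 23.9 and 16.5 FPKM, against 23.0, 23.6 and 25.7 FPKM in WT control. The groups overlapped in both genotypes, and the log2 differences were −0.31 ± 0.27 in KO and −0.25 ± 0.27 in WT (adjusted p = 0.637 and 0.707). The related effector Bak1 differed by −0.20 ± 0.18 in KO and by −0.67 ± 0.18 in WT (adjusted p = 0.665 and 0.0727).

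Of the 2 guardians, Mcl1, a short-lived protein that T cells need to survive, was higher after injury. It was at 307, 310.3 and 386 FPKM in KO IRI, against 205, 134 and 208 FPKM in KO control. In WT IRI it was at 205, 216 and 137 FPKM, against 143, 120.3 and 97.1 FPKM in WT control. The KO groups did not overlap, and in WT the library WT IRI 3 lay below WT control 1. The log2 differences of 0.89 ± 0.25 in KO and 0.62 ± 0.25 in WT did not pass as deposited (adjusted p = 0.14 and 0.23) and passed after rescaling (0.99 ± 0.18, adjusted p = 0.0239, and 0.68 ± 0.18, adjusted p = 0.0471). Both rescaled calls of Mcl1 were lost without KO control 1, WT IRI 3 and WT control 3 together (adjusted p = 0.0835 in KO and 0.167 in WT). Neutrophil markers were also higher after injury. Their sum over 10 genes was 5.17 to 37.5 FPKM in KO IRI, against 2.86 to 4.94 FPKM in KO control, and 20.4 to 45.4 FPKM in WT IRI, against 7.43 to 9.42 FPKM in WT control. Of 7 markers tested, 4 rose (IRI averaged over genotype), and Ngp and Camp were under 1 FPKM in every library. By library the sum was 37.5, 14.3 and 5.17 FPKM in KO IRI 1, 2 and 3, opposite in order to Mcl1. In WT IRI 1, 2 and 3 it was 38.4, 45.4 and 20.4 FPKM, in the same order as Mcl1. The part of neutrophils in the result was not tested.

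Bcl2 was at 87.7, 36.5 and 40.6 FPKM in KO IRI, against 40.8, 31.8 and 42.7 FPKM in KO control. In WT IRI it was at 35.7, 39.5 and 29.9 FPKM, against 27.7, 28.6 and 21.8 FPKM in WT control. The WT groups did not overlap, the KO groups did, and KO IRI 1 stood far above the other 11 libraries. The log2 differences of 0.40 ± 0.30 in KO and 0.41 ± 0.30 in WT did not pass (adjusted p = 0.571 and 0.529). Bcl2 overlaps an antisense gene, D630008O14Rik, at 11.7 to 43.8 FPKM with its highest value also in KO IRI 1. The strand setting of the counting is not given in the sources used here, so reads of the 2 genes cannot be told apart. Bcl2l1, which encodes the guardian Bcl-xL, differed by −0.12 ± 0.21 in KO and −0.66 ± 0.21 in WT (adjusted p = 0.832 and 0.121).

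**Figure D2:**
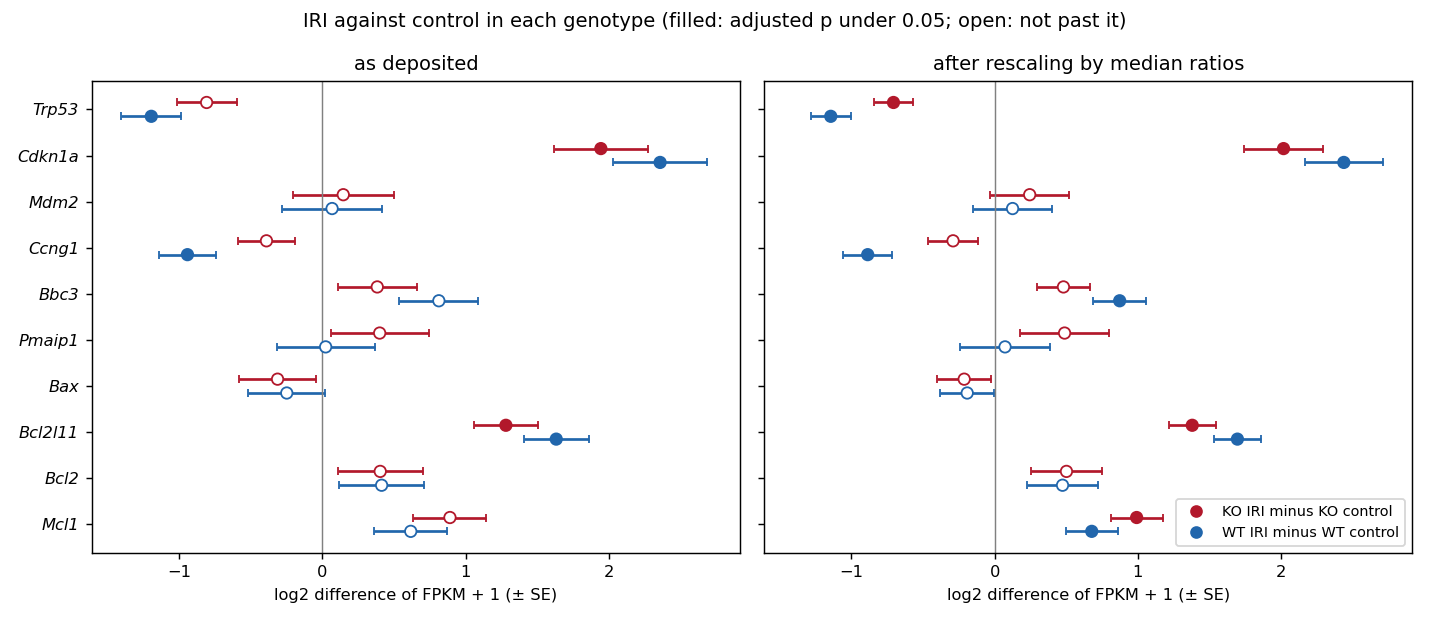
Log2 differences of FPKM + 1 (± SE, linear axis) between IRI and control for the 10 genes in KO (red) and WT (blue), as deposited on the left and after rescaling by median ratios on the right. Filled points passed an adjusted p of 0.05; Cdkn1a and Bcl2l11 are filled in both genotypes and on both scales.

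Libraries of the 2 conditions were fully apart for 4 of the 10 genes in KO (17.4% of all tested genes) and for 6 of 10 in WT (23.7%). In KO these were Trp53, Cdkn1a, Bcl2l11 and Mcl1, and in WT they were Trp53, Cdkn1a, Ccng1, Bbc3, Bcl2l11 and Bcl2. Averaged over genotype, with all 12 libraries in the contrast, 3 genes rose and 2 fell, where 9.04% of all tested genes passed (3.01% higher and 6.03% lower). This average is built from the KO and WT comparisons and is not independent of them. Cdkn1a rose by 2.15 ± 0.23 (SE, n = 6, adjusted p = 0.000542), Bcl2l11 by 1.46 ± 0.16 (adjusted p = 0.000617) and Mcl1 by 0.75 ± 0.18 (adjusted p = 0.0267). Trp53 fell (−0.92 ± 0.10 rescaled, adjusted p = 0.000317, with an adjusted p of 0.0027 as deposited) and Ccng1 fell (−0.67 ± 0.14 as deposited, adjusted p = 0.0152). Bbc3 did not pass as deposited and passed after rescaling, where 13.7% of all tested genes did (0.68 ± 0.13, adjusted p = 0.00728, against 0.60 ± 0.20, adjusted p = 0.0876, as deposited). Without KO control 1, WT IRI 3 and WT control 3 it passed on both scales (adjusted p = 0.0248 as deposited and 0.00791 rescaled). Mcl1 lost its call without any 1 of KO IRI 2, KO IRI 3, WT IRI 1, WT IRI 2, WT control 2 and WT control 3 (highest adjusted p = 0.0684) and with no filter on low values (adjusted p = 0.0594).

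The genotype by IRI interaction tested whether the response to injury differed between KO and WT. As deposited, none of the 10 genes passed by limma (adjusted p = 0.999 for each), where 0.00518% of all tested genes did and 646 genes had an unadjusted p under 0.05. After rescaling none passed either (adjusted p 0.906 to 0.994), where 0.00518% of all tested genes did and 940 genes had an unadjusted p under 0.05. The largest interactions as deposited were 0.55 ± 0.28 for Ccng1 (unadjusted p = 0.0764), −0.43 ± 0.39 for Bbc3 and −0.41 ± 0.46 for Cdkn1a, given as KO response minus WT response. After rescaling they were 0.60 ± 0.24 for Ccng1 (unadjusted p = 0.0341), 0.44 ± 0.20 for Trp53 (unadjusted p = 0.0487) and −0.42 ± 0.39 for Cdkn1a (unadjusted p = 0.301). With standard errors of 0.28 to 0.50 as deposited, no difference between the genotypes of the size of these values passed with 3 libraries a group.

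KO was set against WT to measure the difference that goes with Keap1 deletion and with the source of the mice. The median of all tested genes was itself higher in KO, by 0.26 after IRI and 0.30 in controls on the log2 scale as deposited, and by 0.02 and 0.01 after rescaling. After IRI, 0 of the 10 genes passed by limma as deposited (0.057% of all tested genes) and 0 after rescaling (0.057%), with 4324 and 3179 genes at an unadjusted p under 0.05. In controls, 0 passed as deposited (0.0259% of all tested genes) and 0 after rescaling (0.0363%), with 4022 and 2129 genes at an unadjusted p under 0.05. The libraries of KO IRI and WT IRI were fully apart for 6 of the 10 genes (32.4% of all tested genes), and those of KO control and WT control for 4 (23.7%).

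The largest genotype differences after IRI were those of Pmaip1, Mcl1 and Ccng1. Pmaip1 averaged 15.2 ± 4.13 FPKM in KO IRI and 6.16 ± 1.58 FPKM in WT IRI (SD, n = 3), with no overlap of libraries and a log2 difference of 1.17 ± 0.34 (SE, adjusted p = 0.118) or 0.90 ± 0.31 rescaled (adjusted p = 0.226). Mcl1 differed by 0.86 ± 0.25 (adjusted p = 0.119) or 0.57 ± 0.18 rescaled (adjusted p = 0.2), and its KO IRI libraries all lay above its WT IRI libraries. Bcl2l11 had close means, at 136 ± 9.44 FPKM in KO IRI and 138 ± 26.5 FPKM in WT IRI, and lay lower in KO IRI after rescaling (−0.30 ± 0.16, adjusted p = 0.382). In controls the largest differences were those of Cdkn1a (1.15 ± 0.33, adjusted p = 0.192), Bbc3 (0.89 ± 0.28, adjusted p = 0.192) and Bax (0.84 ± 0.27, adjusted p = 0.194). Cdkn1a averaged 6.47 ± 3.33 FPKM in KO control and 2.27 ± 1.05 FPKM in WT control. Its groups were apart as deposited and overlapped after rescaling, where KO control 3 was at 3.55 and WT control 1 at 3.81.

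Averaged over condition, 7 of the 10 genes rose in KO as deposited, where 13.7% of all tested genes passed and 11.9% were higher. They were Trp53, Cdkn1a, Ccng1, Bbc3, Pmaip1, Bax and Mcl1, with log2 differences of 0.57 to 0.98 and adjusted p of 0.0333 to 0.0463. After rescaling, 0 of the 10 passed (0.55% of all tested genes by limma, 4125 genes at an unadjusted p under 0.05). The lowest adjusted p was then 0.0768 for Bax (0.50 ± 0.13) and 0.0953 for Cdkn1a (0.66 ± 0.19). The count was also 0 after quantile normalization and when protein-coding sums were made equal. Leaving out 1 library gave 0 without KO IRI 1, KO IRI 3, KO control 1, KO control 3, WT IRI 3, WT control 1, WT control 2 or WT control 3. It gave 1 without KO IRI 2, 2 without WT IRI 2, and 7 without KO control 2 or WT IRI 1, where 30.4% and 8.92% of all tested genes passed. Of the 10 genes, 9 kept a higher mean in KO under all 4 scalings, and Bcl2l11 changed sign (0.17 ± 0.16 as deposited and −0.14 ± 0.12 rescaled).

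**Figure D3:**
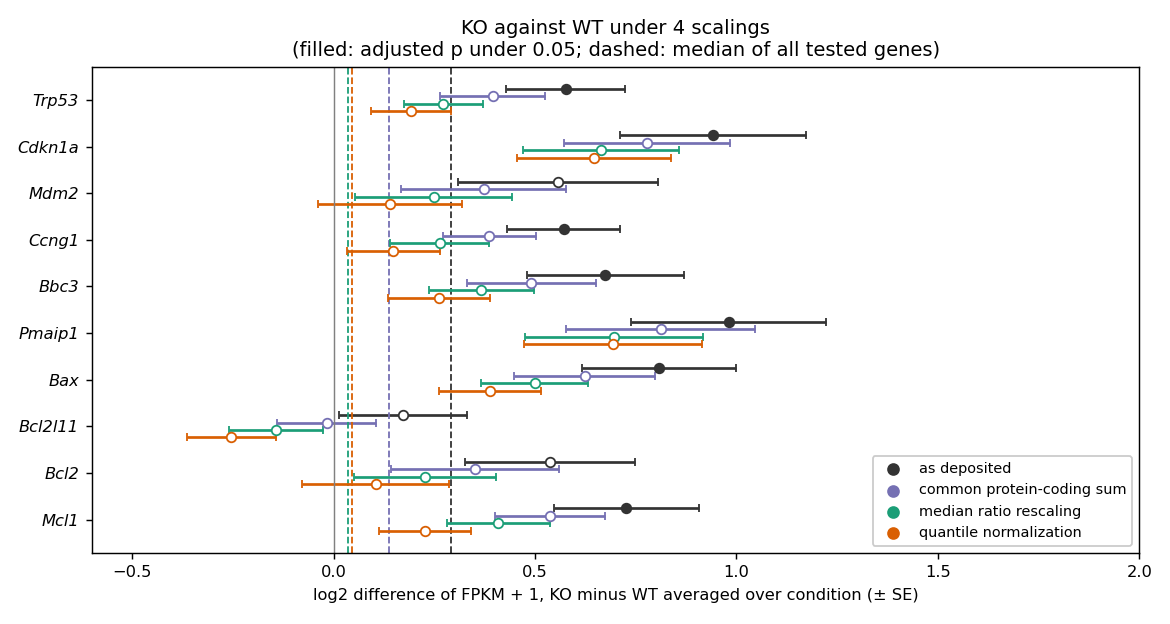
Log2 differences of FPKM + 1 (± SE, linear axis) between KO and WT averaged over condition for the 10 genes under 4 scalings of the libraries. Filled points passed an adjusted p of 0.05, and dashed lines give the median of all tested genes under each scaling; the 7 filled points are all from the values as deposited.

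Other features of the samples moved with genotype. Cd4 was higher in KO by 1.62 ± 0.20 (adjusted p = 0.00882) as deposited and 1.30 ± 0.14 rescaled (adjusted p = 0.00484). Cd3e was higher by 0.73 ± 0.13 as deposited (adjusted p = 0.0232) and did not pass rescaled (0.41 ± 0.10, adjusted p = 0.066). The sum of 12 CD4 T cell markers was 1688 to 2071 FPKM in KO IRI, against 873 to 1083 FPKM in WT IRI. In controls it was 2078 to 3078 FPKM in KO, against 1656 to 1824 FPKM in WT. The sum of 8 B cell markers was 15.8 to 116 FPKM in KO IRI and 213 to 1360 FPKM in KO control, against 16.6 to 36.3 FPKM in WT IRI and 42.4 to 122 FPKM in WT control. It overlapped between genotypes after IRI, and the 1360 FPKM was KO control 1, with 213 and 285 FPKM in KO control 2 and 3. Dendritic cell sums were 30.0 to 52.9 FPKM in KO control and 20.8 to 26.9 FPKM in WT control, and overlapped after IRI. Macrophage and monocyte sums were 156 to 346 FPKM in KO control and 80.7 to 169 FPKM in WT control, and overlapped in both conditions. The parts of these in the genotype differences of the 10 genes were not tested.

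Ratios of 2 genes within a library do not depend on a factor applied to the whole library and are given as descriptions, without a test. The ratio of Bcl2l11 to Mcl1, the trigger against a guardian, averaged 0.411 ± 0.058 in KO IRI, 0.312 ± 0.049 in KO control, 0.752 ± 0.106 in WT IRI and 0.369 ± 0.069 in WT control (SD, n = 3). The 3 WT IRI libraries, at 0.629 to 0.820, lay above all other 9, and the KO IRI libraries, at 0.352 to 0.469, lay above those of KO control and overlapped those of WT control. The ratio of Bcl2l11 to Bcl2 averaged 2.92 ± 1.32 in KO IRI, 1.46 ± 0.24 in KO control, 3.94 ± 0.62 in WT IRI and 1.68 ± 0.16 in WT control. KO IRI 1, with its high Bcl2 value, was at 1.44 and within the range of the controls. The ratio of Bcl2l11 to Bbc3 averaged 3.47 ± 0.72 in KO IRI, 1.83 ± 0.17 in KO control, 4.88 ± 1.36 in WT IRI and 2.80 ± 0.81 in WT control. Bim mRNA was thus more abundant than Puma mRNA in every library. The ratio of Bbc3 to Mcl1 (not drawn) averaged 0.121 ± 0.026 in KO IRI and 0.169 ± 0.012 in KO control, without overlap. It averaged 0.158 ± 0.028 in WT IRI and 0.135 ± 0.027 in WT control, with overlap.

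The ratio of Bax to Bcl2 was lower after injury, averaging 0.705 ± 0.151 in KO IRI, 1.17 ± 0.23 in KO control, 0.579 ± 0.027 in WT IRI and 0.945 ± 0.202 in WT control. IRI and control libraries did not overlap in this ratio within either genotype. How often ratios of other genes do so was not counted. Neither Bax nor Bcl2 passed alone in an IRI comparison. Reads of Bcl2 cannot be told apart from those of its antisense gene D630008O14Rik, a limit that also holds for the ratio of Bcl2l11 to Bcl2. The ratio of Cdkn1a to Trp53 averaged 1.41 ± 0.38 in KO IRI, 0.188 ± 0.078 in KO control, 1.43 ± 0.21 in WT IRI and 0.0887 ± 0.0422 in WT control, and p21 mRNA exceeded that of Trp53 in every IRI library and in no control library. The ratio of Mdm2 to Trp53 averaged 2.46 ± 1.37 in KO IRI, 1.15 ± 0.29 in KO control, 2.64 ± 0.62 in WT IRI and 1.03 ± 0.15 in WT control. IRI libraries lay above control libraries of their genotype here too, a difference that the fall of Trp53 enters.

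**Figure D4:**
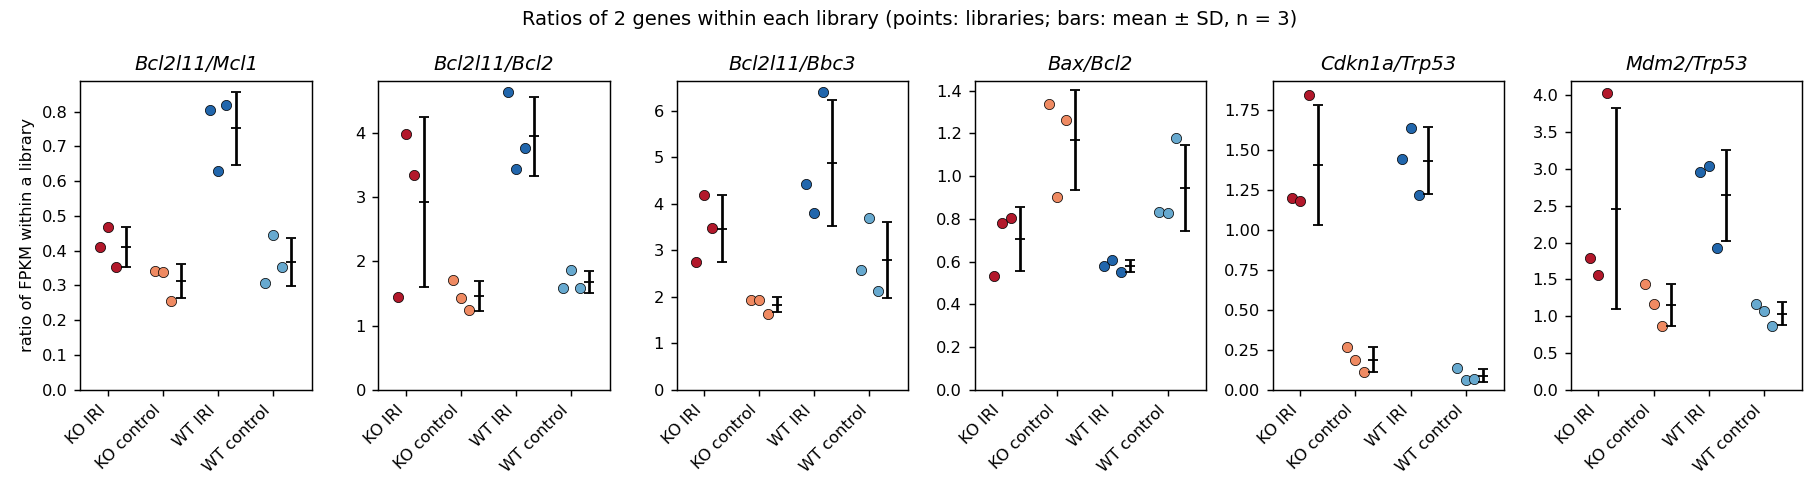
Ratio of the FPKM of 2 genes within each library (linear axes from 0) for 6 pairs; points are libraries and bars the mean ± SD of 3. The ratio of Bcl2l11 to Mcl1 is highest in the 3 WT IRI libraries, at 0.629 to 0.820, and the ratio of Cdkn1a to Trp53 is above 1 in the IRI libraries of both genotypes.

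Other genes of the pathway were counted in the same fit. Of 32 further genes of p53 activity, 27 passed the filter, and 1 rose and 0 fell with IRI averaged over genotype, where 9.04% of all tested genes passed. Their median difference was 0.05, against −0.00 for all tested genes. The gene that rose was the death receptor Fas, at 15.2 ± 3.38 FPKM in KO IRI, 7.07 ± 2.49 in KO control, 9.68 ± 2.01 in WT IRI and 4.50 ± 0.236 in WT control (SD, n = 3; 0.99 ± 0.17, adjusted p = 0.00581). None of the 27 passed in KO or in WT alone. After rescaling Trp53inp1 and Sesn2, both induced by p53 under stress, rose as well, where 13.7% of all tested genes passed. The count was also 3 without KO control 2 or without WT IRI 3, where 13.2% and 9.74% of all tested genes passed. Fas did not pass without KO control 1, WT IRI 3 and WT control 3 together.

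Of 16 genes that control p53, 15 were tested. With IRI averaged over genotype 2 rose and 1 fell, where 3.01% of all tested genes rose and 6.03% fell. The checkpoint kinase Chek1 was at 11.6 ± 5.29 FPKM in KO IRI, 3.38 ± 1.70 in KO control, 17.6 ± 2.44 in WT IRI and 1.85 ± 1.22 in WT control (2.13 ± 0.29, adjusted p = 0.00183). Within genotypes Chek1 passed in WT (2.79 ± 0.42, adjusted p = 0.00681) and not in KO. Hipk2, a kinase that phosphorylates p53, rose by 1.13 ± 0.16 (adjusted p = 0.00206), and passed in KO (1.15 ± 0.23, adjusted p = 0.0492) and in WT (1.10 ± 0.23, adjusted p = 0.0251). Atm, the kinase of DNA double-strand breaks, fell (−0.78 ± 0.20, adjusted p = 0.0345). The Atm call was lost with no filter and without any 1 of KO IRI 2, KO IRI 3, KO control 1, KO control 3, WT IRI 2, WT control 1 and WT control 2 (highest adjusted p = 0.0888). The Hipk2 call within KO was lost without any 1 library other than KO control 2 and WT control 3, and that within WT without WT IRI 1, WT IRI 2, WT control 1 or WT control 2 (highest adjusted p 0.174 and 0.0872). Averaged over genotype, the calls of Chek1 and Hipk2 held with each library left out. Mdm4, the partner of Mdm2, did not pass (−0.03 ± 0.13, adjusted p = 0.911).

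None of the 4 other guardians or of the 5 other effector and BH3-only genes tested passed with IRI averaged over genotype, as deposited, of 6 and 7 listed. Without KO control 2, 1 gene of each list passed, and without WT IRI 3, 1 of the effector and BH3-only genes passed. Of all tested genes, 13.2% and 9.74% passed there. Bid differed by −0.48 ± 0.23 (adjusted p = 0.228), Bak1 by −0.43 ± 0.13 (adjusted p = 0.064) and Bcl2l1 by −0.39 ± 0.15 (adjusted p = 0.14). Of 20 genes of the apoptosome, caspases and their inhibitors, 2 rose and 1 fell, where 3.01% of all tested genes rose and 6.03% fell. The rises were those of Birc3 (1.27 ± 0.16, adjusted p = 0.00127) and Birc2 (0.74 ± 0.13, adjusted p = 0.00698). Both encode ubiquitin ligases that restrain death signalling and act in NF-kB signalling. Birc3 was at 124 ± 26.2 FPKM in KO IRI, 59.8 ± 11.4 in KO control, 109 ± 16.1 in WT IRI and 38.1 ± 7.13 in WT control.

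Of the 3 other cyclin-dependent kinase inhibitors tested, of 6 listed, Cdkn2d (p19) rose beside Cdkn1a, by 0.95 ± 0.16 (adjusted p = 0.00538). It was at 40.3 ± 6.12 FPKM in KO IRI, 17.4 ± 3.26 in KO control, 18.8 ± 5.47 in WT IRI and 10.7 ± 1.15 in WT control. With IRI averaged over genotype, 3.01% of all tested genes rose and 6.03% fell. Of 15 genes of dividing cells, 0 rose and 7 fell, with a median of −0.60. The fall was −1.26 ± 0.26 for Rrm2, a ribonucleotide reductase subunit (adjusted p = 0.0145), −0.92 ± 0.21 for the proliferation marker Mki67 (adjusted p = 0.0213) and −0.89 ± 0.18 for Top2a, a topoisomerase (adjusted p = 0.0139). As deposited, none of the 15 passed in KO or in WT alone. The count of 7 was 2 without KO IRI 2 or WT control 2, where 3.51% and 4.04% of all tested genes fell. It was 4 without KO control 1, WT IRI 1, WT IRI 2, WT IRI 3, WT control 1 or WT control 3. In those fits 3.79% to 5.34% of all tested genes fell. The Mki67 call was lost without KO IRI 2, without WT control 2 (highest adjusted p = 0.056) and with no filter.

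**Figure D5:**
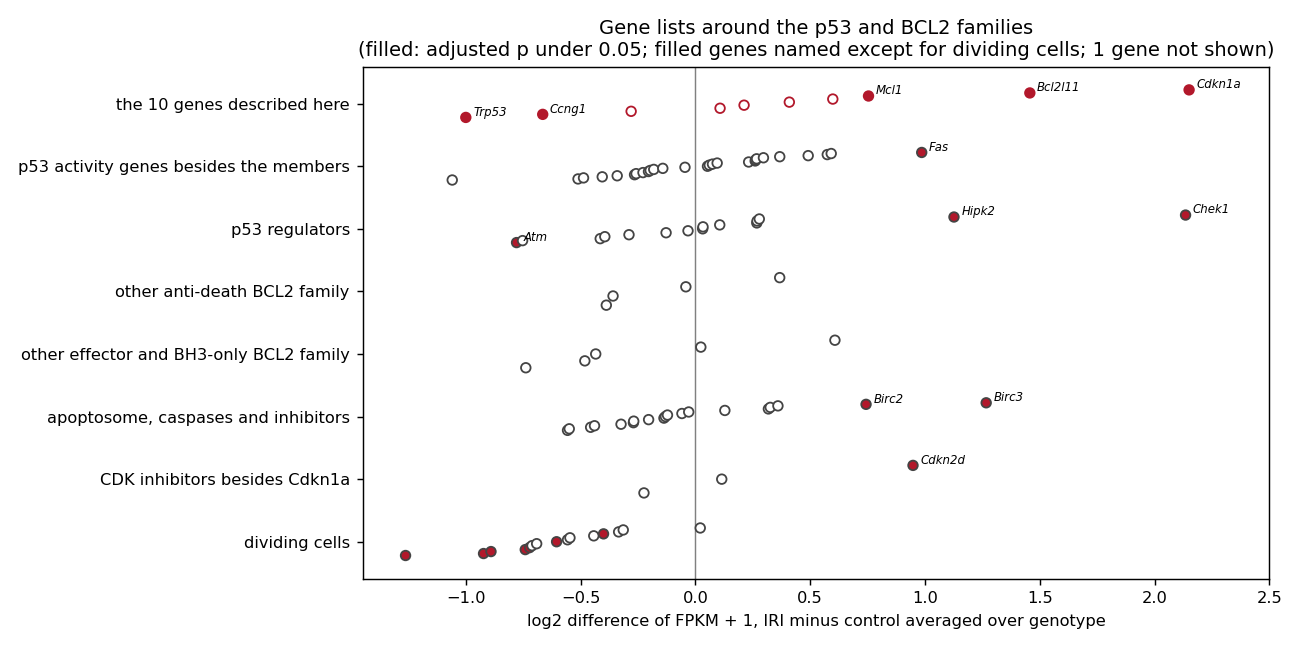
Log2 differences of FPKM + 1 (linear axis) between IRI and control averaged over genotype, 1 point per tested gene (1 apoptosome gene is not shown), for the 10 genes and 7 lists around them. Filled points passed an adjusted p of 0.05, and they are named except for the 7 of dividing cells.

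With KO against WT averaged over condition, 5 of the 27 p53 activity genes, 3 of the 15 regulators, 5 of the 20 apoptosome genes and 2 of the 3 kinase inhibitors rose as deposited, where 11.9% of all tested genes rose. Without KO control 2 these counts were 11, 5, 14 and 2, where 25.5% of all tested genes rose. Without KO IRI 1, KO control 1, KO control 3, WT control 1 or WT control 2 they were 0 each, and without 1 of the other libraries they were 0 to 3. Among them, Plk3, a stress kinase, differed by 0.84 ± 0.14 (adjusted p = 0.023) and Cdkn1b, which encodes p27, by 0.68 ± 0.16 (adjusted p = 0.0339). None of these lists had a gene past the threshold after rescaling by limma, where 0.55% of all tested genes passed and Cdkn2d came nearest (0.56 ± 0.11, adjusted p = 0.053).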

How the data were processed

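Kidney mononuclear cells were flow sorted for CD4 T cells, and 1 ng of total RNA per library went through a stranded Pico kit into paired 36 bp sequencing, per the labels' protocols. The authors deposited 1 FPKM value per gene and library. The submitters' processing notes name build GRCm38, Cufflinks 2.2.1, TopHat2 2.1.0, Partek 7.0 and bcl2fastq 2.17.1.14. What each tool did, the annotation used, strandedness in counting and scaling between libraries are not given in the sources used here. Gene IDs were paired with symbols for 52485 of 52632 genes through GENCODE M21. The authors' FPKM values hold no counts, so depth is unknown and no counting error was attached to a value.

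The deposited values were tested without further scaling for the 19288 genes (12065 protein-coding) averaging at least 1 FPKM, with limma 3.58.1 in R 4.3.3 (lmFit, eBayes with a trend) on log2(FPKM + 1), all 12 libraries in 1 fit, leaving 8 residual degrees of freedom. Adjustment of p-values was by Benjamini-Hochberg over all tested genes within each of 7 comparisons, and the procedure was tested on simulated data. For the rescaling, a library's factor was its median ratio to gene-wise geometric means, taken over 16018 genes above 0 in all libraries. The genes named are the 10 in every comparison, and up to 4 per list and comparison past the threshold. Bcl2l1, Bak1, Bid, Mdm4, Keap1 and Nqo1 are also named. Trp53inp1, Sesn2 and the genes of library and cell type checks were added after their values were seen. The 10 genes and the lists were chosen with earlier results of these data known. Of the genes in the lists, 2 that passed are counted and are not reported here by name.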

Additional observations from a re-analysis of the deposited data

How the results depend on the processing

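The number of the 10 genes called for KO IRI against KO control was 2, and it became 4 after median ratio rescaling, 4 after quantile normalization, 4 with protein-coding genes only (4.58% of genes then passed) and 0 with no filter on low values. With each library left out in turn it ran from 0 to 3. For WT IRI against WT control the count of 4 ran from 2 to 4 over libraries left out, and was 2 without the 3 libraries that stand apart (KO control 1, WT IRI 3 and WT control 3, a set chosen after the data were seen). For KO IRI against WT IRI the count of 0 became 2 with protein-coding genes only (Ccng1 and Pmaip1, where 4.57% of genes passed) and ran from 0 to 1 over libraries left out. For KO control against WT control it was 0 and ran from 0 to 1, with Bax called without KO control 2, where 9.38% of genes passed. For IRI averaged over genotype the count of 5 ran from 4 to 6 over libraries left out and over the other settings. For KO against WT averaged over condition the count of 7 became 0 after median ratio rescaling, quantile normalization, a common protein-coding sum, with no filter, and without the 3 libraries on either scale. It ran from 0 to 7 over libraries left out. The interaction count was 0 under each setting. No difference past the threshold changed sign. The cause of these moves was not tested.

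Replicate numbers are shared by the groups, and deviations of same-numbered libraries correlated at −0.0371 to 0.202 over 18 pairs. Of these, 1 was over 0.1, that of WT IRI 3 with WT control 3. The main fit did not pair libraries by number. Such correlations cannot show whether same-numbered libraries were handled together. With the replicate number as a block the counts were 2 in KO, 3 in WT (without Ccng1), 5 for IRI averaged over genotype and 5 for KO against WT averaged over condition (without Bbc3 and Mcl1).

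Over all genes the count for IRI averaged over genotype was 1744 (1044 to 2544 over libraries left out, lowest without KO IRI 2, KO control 3 or WT IRI 2). For KO against WT averaged over condition it was 2639 (40 without KO control 3 to 5857 without KO control 2). Of the gene lists, with IRI averaged over genotype, dividing cells had 7 genes called (2 to 6 over libraries left out and 3 to 8 under the other settings). The p53 activity genes had 1 (1 to 3, and 1 to 4). The depth of the libraries is unknown and limits what can be said of low genes such as Cdkn1a in WT control.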
